A study of Mus musculus with 66 samples.

Results

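The genes described here are 8 genes of epidermal cornification: the suprabasal keratins Krt1 and Krt10, the keratinocyte differentiation-associated gene Krtdap, the filaggrins Flg and Flg2, the envelope precursor Ivl (involucrin) and the transglutaminases Tgm1 and Tgm3. They were chosen by symbol, as 8 of the 30452 genes of the deposited abundance table, and hold 27 of its 88198 transcripts. Cornification is the last step of keratinocyte life in skin: a cell leaves the basal layer, exchanges the basal keratins Krt5 and Krt14 for Krt1 and Krt10, and fills with filaggrin. Transglutaminases then join involucrin, loricrin and related proteins into an insoluble envelope under the membrane, and the dead cell is shed. Squamous linings such as the mouth and oesophagus rest on the same basal keratins but carry Krt4 and Krt13 above them.

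The data were bulk RNA-seq of gut sections from 19 C57Bl/6 mice, which came from Jackson Laboratory when 6 weeks old, and the labels name no other allele or agent. Dextran sulfate sodium (DSS), a polymer that injures the colonic mucosa, was given at 3% for 6 days. The 4 mice of day 0 were uninjured. Another 3 mice each were killed at days 3, 6, 9, 14 and 20, and those of day 3 had not completed the exposure. Mid-colon, rectum and anus were taken from all 19 mice, and squamous neo-epithelium of the colon, which is squamous tissue at a site normally lined by columnar cells, from the 9 mice of days 9, 14 and 20. Each section was mucosa of 1 mouse with the muscle layer removed, so 66 samples formed 21 groups of section and day. A section is a mixture of cell types, and in such a sample fewer cells of a type and less RNA per cell cannot be told apart.

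The 8 genes lie on 6 chromosomes of GRCm38 in the GENCODE annotation. Flg (chr3:93273523-93293686, + strand), Flg2 (chr3:93197278-93221391, + strand) and Ivl (chr3:92570902-92573735, - strand) belong to the epidermal differentiation complex, a cluster of envelope genes. Krt1 (chr15:101845426-101850794, - strand) lies with the type II keratins and Krt10 (chr11:99385254-99389364, - strand) with the type I keratins. Krtdap is at chr7:30787896-30791097 (+ strand), Tgm1 at chr14:55700009-55713926 (- strand) and Tgm3 at chr2:130012349-130050399 (+ strand). The RefSeq promoter table (GRCm38.p6) held 7 of the 8 genes, all but Krt1. The windows below, 5′ to 3′ and ending just upstream of the annotated start, are shown because 5 of these genes were low in neo-epithelium while Tgm3 was not. Capitals mark a promoter box that was searched for as TATAAA. They also mark the motif of AP-1, a Jun and Fos factor active in keratinocytes, which was searched for as TGANTCA. Both were searched on both strands, and they did not overlap in these genes.
Krtdap, chr7:30787775-30787895 (+): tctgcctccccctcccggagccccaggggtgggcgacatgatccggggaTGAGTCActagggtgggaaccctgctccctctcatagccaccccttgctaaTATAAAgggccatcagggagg
Ivl, chr3:92573736-92573865 (-): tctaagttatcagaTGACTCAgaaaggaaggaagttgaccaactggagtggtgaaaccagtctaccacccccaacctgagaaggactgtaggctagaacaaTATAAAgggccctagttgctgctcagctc
Flg, chr3:93273416-93273522 (+): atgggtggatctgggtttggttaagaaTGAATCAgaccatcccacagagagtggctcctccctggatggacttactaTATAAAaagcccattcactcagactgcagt
Flg2, chr3:93197143-93197272 (+): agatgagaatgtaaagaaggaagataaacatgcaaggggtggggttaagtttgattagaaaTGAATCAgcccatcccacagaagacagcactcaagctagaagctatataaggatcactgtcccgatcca
Krt10, chr11:99389365-99389494 (-): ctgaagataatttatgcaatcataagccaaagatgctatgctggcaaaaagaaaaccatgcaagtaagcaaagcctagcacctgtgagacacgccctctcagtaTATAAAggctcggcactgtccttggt
Tgm3, chr2:130012210-130012339 (+): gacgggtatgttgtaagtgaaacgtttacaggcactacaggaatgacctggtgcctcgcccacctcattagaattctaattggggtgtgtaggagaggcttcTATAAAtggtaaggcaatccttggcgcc

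The AP-1 letters were in 4 of the 7 promoters, at -81 in Krtdap, -103 in Flg, -69 in Flg2 and -116 in Ivl, counted from the RefSeq start. The search used the full windows of the promoter table, 300 bases each, which are longer than the parts printed above and run past the start. The AP-1 letters were in 7.81% of all 32851 such windows. TATAAA was in 5 of the 7 (Krt10, Krtdap, Flg, Ivl and Tgm3) and in 13.6% of all windows. Tgm1 has 2 entries in the table and neither held either motif. A match describes letters in the window and is not a site of binding.

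The deposited values were TPM, a relative abundance per transcript length scaled to the same total in each sample, and give no sequencing depth. Between 11268 and 13789 genes reached 1 TPM per sample, and mitochondrial genes took 6.26% to 28.51% of the total. The labelled tissues were checked against marker lists. The colonocyte list (Car1, Aqp8, Slc26a3, Guca2a and Cdx2) summed to 6454 to 8239 TPM in rectum and 345 to 1443 TPM in anus at day 0, so the anal section held some columnar tissue. The basal keratinocyte list (Krt5, Krt14 and Trp63) summed to 6612 to 13917 TPM in neo-epithelium and to 3418 to 8865 TPM in anus over days 9 to 20. Lists of hair follicle, sebaceous gland and skeletal muscle genes, which mark the perianal skin and sphincter, summed to 16.2 to 896, 91.7 to 824 and 2744 to 11037 TPM in those anal samples. In neo-epithelium they reached at most 0.281, 3.06 and 12.3 TPM, and the follicle keratin Krt25 was listed at 0 in all 9 samples. By limma, all 5 genes of each of these 3 lists were lower in neo-epithelium, where 20.4% of all 14861 genes tested were lower. Genes such as Krt25 entered that test only through the anus, which favours the lower direction. The part of the 3 lists in the differences between anus and neo-epithelium was not tested.

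In uninjured mice, 7 of the 8 genes were genes of the anal section, and Tgm3 was a gene of the colon. Krtdap, which encodes a secreted protein of differentiating keratinocytes, was at 21364, 14596, 10267 and 7324 TPM in the anus and at 82.7, 16.0, 16.8 and 6.29 TPM in the rectum of the same 4 mice. The groups did not overlap, and the log2 difference was 9.22 ± 0.63 (SE; limma, Benjamini-Hochberg or BH-adjusted p 1.72e-06). Krt1, the type II keratin of the suprabasal epidermis, was at 1758, 1144, 1139.7 and 795 TPM in anus and 14.3, 0.861, 1.16 and 0.147 TPM in rectum. Its type I partner Krt10 was at 2245, 1567, 1468 and 937 TPM in anus and 18.0, 2.91, 4.32 and 1.99 TPM in rectum. Both keratins were thus separated between the sections in every mouse, with log2 differences of 8.65 ± 0.67 and 7.98 ± 0.51.

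Flg, which encodes the precursor that bundles keratin filaments, was at 817, 509, 524 and 254 TPM in anus and at 4.93, 0.478, 0.846 and 0 TPM in rectum. Flg2, its neighbour in the complex, was about an order of magnitude lower, at 63.4, 63.8, 50.7 and 37.7 TPM in anus, and did not exceed 0.193 TPM in rectum. Ivl, a scaffold protein of the early envelope, was at 98.5, 83.0, 57.4 and 42.1 TPM in anus and 0.0324 to 0.241 TPM in rectum. Tgm1, the membrane-bound enzyme that crosslinks the envelope, was at 118, 82.2, 74.0 and 53.9 TPM in anus and 0.107 to 1.13 TPM in rectum. For each of these 4 genes the lowest anal sample was above the highest rectal one.

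Tgm3, a cytosolic transglutaminase known from epidermis and hair follicle, had the opposite order. It was at 879.6, 795, 945 and 538 TPM in mid-colon, at 609.8, 556, 636 and 529 TPM in rectum and at 76.2, 102, 72.6 and 216 TPM in anus. The rectal and anal samples did not overlap, and the log2 difference was -2.46 ± 0.30 (limma, BH-adjusted p 9.09e-05). Between rectum and mid-colon Tgm3 was lower in rectum in 4 of 4 mice but missed the threshold (log2 difference -0.41 ± 0.16, limma, BH-adjusted p 0.173). It passed with TMM scaling (-0.66, adjusted p 0.0264) and without mouse 4 (0.0415). Between anus and rectum all 8 members passed the test, 7 higher and 1 lower in anus, where 60.3% of 13158 genes passed (25.9% higher and 34.4% lower). All 8 calls held without any 1 mouse and under each other setting tried. Krt1, Flg, Flg2, Ivl and Tgm1 entered this test only through the anal samples, so the filter favoured the higher direction for them.

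**Figure D1:**
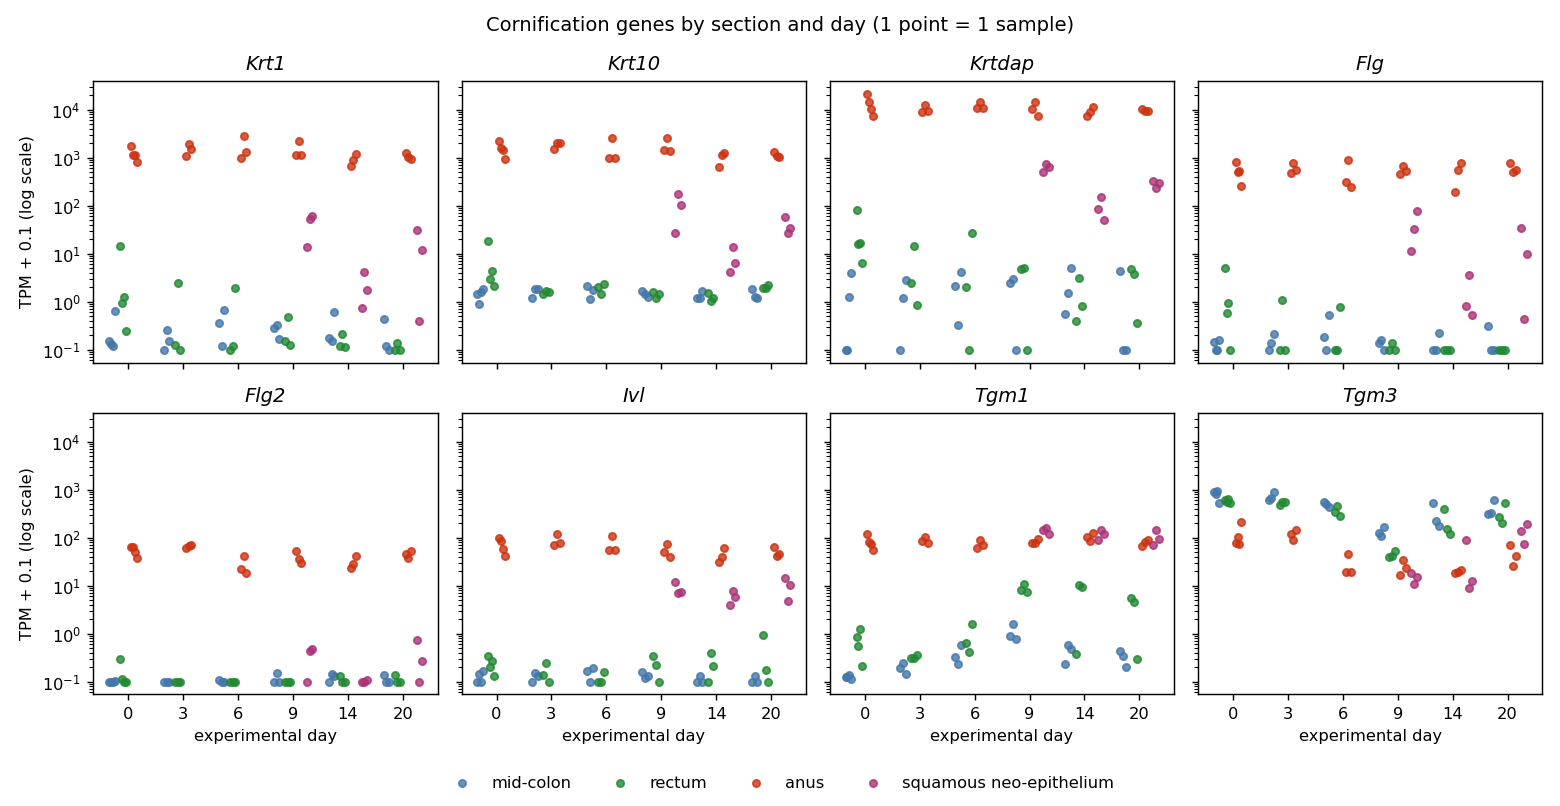
TPM + 0.1 (log scale) of the 8 genes against experimental day, 1 point per sample, coloured by section. The anal samples of 7 genes sit far above rectum and mid-colon at every day, Tgm3 is highest in mid-colon and rectum, and neo-epithelium lies between anus and rectum for Krtdap, with 49.2 to 745 TPM.

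In the rectum of day 0, mouse 1 had the highest level of Krt1, Krt10, Krtdap and Flg, with 82.7 TPM of Krtdap where the others had at most 16.8 TPM. Krtdap was the only member called between rectum and mid-colon (log2 difference 3.53 ± 0.71, limma, BH-adjusted p 0.0414), where 1.79% of 12037 genes passed and 3 members could be tested. In mid-colon it was listed at 0 in 2 of the 4 samples. Krtdap thus met the filter only through the rectum, which favoured the higher direction. No member was called without mouse 1, 2 or 3, but only 1, 3 and 2 genes of any kind passed in those fits, against 216 with all mice. Without mouse 4 there were 2 members among 166 genes. The call also ended with a pseudocount of 0.1, without the filter and with TMM scaling (adjusted p 0.0613, 0.0951 and 0.0825).

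Neo-epithelium was compared with the anus, the native squamous section, of the same 9 mice. The genes fell into 3 levels. Krt1, Krt10, Krtdap, Flg and Flg2 had medians of 3.10% or less of the anal level of the same mouse, Ivl had 18.8%, and Tgm1 and Tgm3 had 130.4% and 108%. In the test, 6 members were lower and 1 higher, where 58.5% of 14861 genes passed (38.1% higher and 20.4% lower). Flg2, with at most 0.624 TPM in neo-epithelium, entered the test only through the anus. The 6 lower calls held without any 1 mouse, at each day alone, with the mouse as a block, with TMM scaling and relative to the basal keratins.

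Krt1 was at 14.0, 53.3 and 60.7 TPM in neo-epithelium at day 9, at 0.653, 4.06 and 1.63 TPM at day 14 and at 30.5, 0.299 and 11.7 TPM at day 20. The anal samples of those mice held 687 to 2226 TPM, so that neo-epithelium had a median of 1.22% of the anal level of the same mouse (0.0294% to 5.43%). The log2 difference of Krt1 was -6.88 ± 0.55 (limma, BH-adjusted p 2.63e-08), on the log2(TPM + 1) scale, which understates the change of low values. Krt10 was at 27.3, 176 and 101 TPM at day 9, at 4.13, 13.5 and 6.45 TPM at day 14 and at 58.9, 26.8 and 34.0 TPM at day 20, against 629.7 to 2516 TPM in the matched anal samples. Its median was 2.44% of the anal level (0.511% to 7.48%). No neo-epithelial sample reached the lowest anal sample in either keratin. The pair was also unequal: Krt10 was 0.739 to 1.43 times Krt1 in the 19 anal samples (median 1.13) and 1.67 to 89.8 times Krt1 in neo-epithelium (median 3.31), with no overlap. The 89.8 came from mouse 18, with 0.299 TPM of Krt1, and the next highest was 6.32, with 0.653 TPM. Rectum over days 9 to 20 had means of 1.47 TPM of Krt10 and 0.0717 TPM of Krt1. The part of such low levels in the ratio was not tested.

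Krtdap had the highest mean of the 8 in neo-epithelium, 336 ± 245 TPM (SD, n = 9). It was at 494, 745 and 645 TPM at day 9, 86.7, 149 and 49.2 TPM at day 14 and 326, 236 and 297 TPM at day 20. The matched anal samples held 7219 to 14277 TPM, and the neo-epithelial median was 3.10% of the anal level. Flg was at 11.2, 33.1 and 76.7 TPM at day 9, 0.724, 3.54 and 0.440 TPM at day 14 and 34.9, 0.348 and 9.92 TPM at day 20, against 197 to 792 TPM in anus (median 1.78%). Flg varied widely between mice: at day 20 mouse 17 had 34.9 TPM and mouse 18 had 0.348 TPM. Flg2 was listed at 0 in 4 of the 9 neo-epithelial samples and reached 0.624 TPM at most, against 23.5 to 52.5 TPM in anus. Flg is summed over 8 annotated fragments of a repetitive gene, so its absolute level is uncertain. The fragment that led in anus averaged 380 TPM over all 19 anal samples, day 0 to day 20, and 7.72 TPM over the 9 neo-epithelial samples.

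Ivl was intermediate. It was at 11.8, 6.95 and 7.26 TPM at day 9, 3.82, 7.59 and 5.74 TPM at day 14 and 14.0, 4.65 and 10.2 TPM at day 20, against 31.6 to 71.9 TPM in anus. Neo-epithelium held 9.49% to 23.4% of the anal level of the same mouse, with a median of 18.8%. This range lay above that of Krt1, Krt10, Krtdap and Flg2 in all 9 mice, and the log2 difference was -2.52 ± 0.20 (limma, BH-adjusted p 2.06e-08).

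Tgm1 was not lower. It was at 141, 162 and 121 TPM at day 9, 87.4, 146 and 122 TPM at day 14 and 68.9, 145 and 94.3 TPM at day 20 in neo-epithelium, against 67.0 to 123 TPM in anus. The groups overlapped. Neo-epithelium held 86.7% to 211% of the anal level and was higher in 7 of 9 mice. The log2 difference was 0.43 ± 0.15 (limma, BH-adjusted p 0.0198). The call ended without mouse 11, 12 or 15 (adjusted p 0.0622, 0.0694 and 0.0604), with TMM scaling (0.122) and at days 14 and 20 alone (0.542 and 0.478). Relative to the basal keratins, which were themselves higher in neo-epithelium by 0.66 on the log2 scale, the difference of Tgm1 turned to -0.24 and was not called (adjusted p 0.282).

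Tgm3 was at 17.9, 10.8 and 15.0 TPM at day 9, 87.3, 8.76 and 12.2 TPM at day 14 and 134, 74.7 and 189 TPM at day 20 in neo-epithelium. The matched anus held 16.6 to 70.4 TPM. Over the 9 mice Tgm3 did not pass the test (log2 difference 0.34 ± 0.41, limma, BH-adjusted p 0.492), and it was higher in neo-epithelium in 5 mice and lower in 4. Car1, a carbonic anhydrase of colonocytes, moved with it: the 4 neo-epithelial samples with the most Tgm3 had 439 to 1457 TPM of Car1 and the other 5 had 0.242 to 112 TPM. The colonocyte list summed to 0.304 to 111 TPM in neo-epithelium at day 9 and to 848 to 2587 TPM at day 20. Its part in the level of Tgm3 was not tested.

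**Figure D2:**
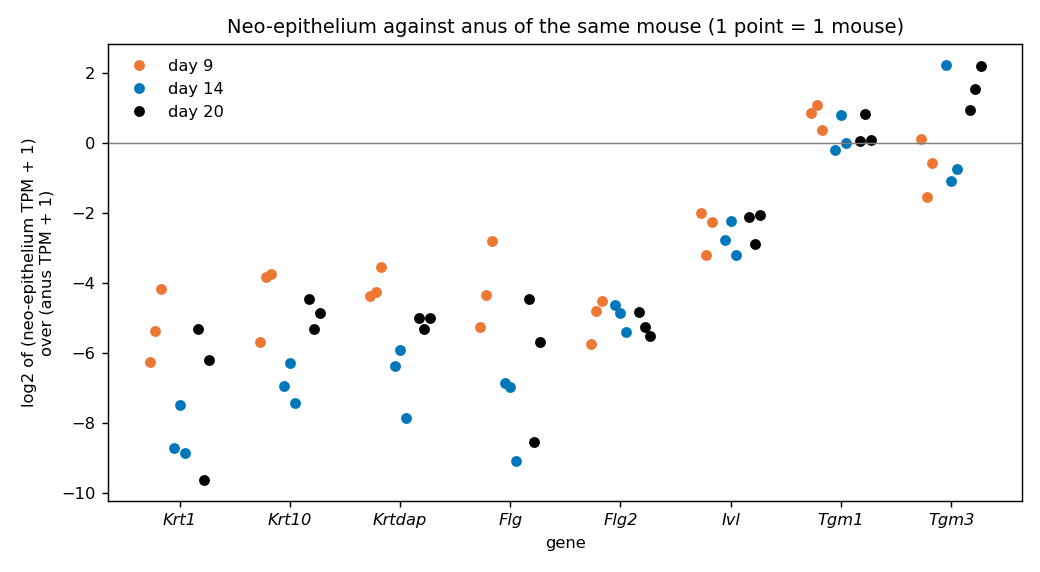
Log2 ratio of neo-epithelium to the anus of the same mouse, on TPM + 1, for each gene, 1 point per mouse and coloured by day, with 0 marking equal levels. Krt1, Krt10, Krtdap, Flg, Flg2 and Ivl lie below 0 in 9 of 9 mice, and Tgm1 and Tgm3 lie on both sides of it.

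Within neo-epithelium, 4 of the 7 testable members were lower at day 14 than at day 9, where 16.8% of 13129 genes passed. The log2 differences were -3.72 ± 0.64 for Krt1, -3.29 ± 0.72 for Krt10, -2.83 ± 0.39 for Krtdap and -3.83 ± 0.74 for Flg (limma, BH-adjusted p 0.0174, 0.0303, 0.0120 and 0.0227). For each of these genes the highest day 14 sample was below the lowest day 9 sample, and Ivl and Tgm1 were not called. No member was called without mouse 12 or 13, and 1 was without mouse 16. Those fits called 424, 0 and 741 genes of any kind, against 2207 with all mice. Without the filter, 2 members were called. Krt1 and Flg had day 14 samples under 1 TPM and entered the test only through day 9. Marker lists moved over the same days: the basal keratinocyte list summed to 11982 to 13917 TPM at day 9 and 7272 to 7984 TPM at day 14. A list of squamous lining genes (Krt4, Krt13, Mal and Crnn) summed to 12038 to 13962 and 4414 to 9838 TPM, and the colonocyte list to 0.304 to 111 and 111 to 1862 TPM. The 4 calls held relative to the basal keratins, and the part of the other lists was not tested. In the matched anal samples the 2 days were not tested against each other; Krt10 there was 1444, 2516 and 1353 TPM at day 9 and 629.7, 1128 and 1264 TPM at day 14.

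At day 20 the members had parted. Against day 9, Krtdap was still lower (log2 difference -1.12 ± 0.20, limma, BH-adjusted p 0.0111) and Tgm3 was higher (3.03 ± 0.36, adjusted p 0.00374), where 26.2% of 13186 genes passed. Krt1, Krt10 and Flg were not called at day 20. Without mouse 13 only 1 member was called, and relative to the basal keratins the Krtdap difference was -0.60 and not called (adjusted p 0.208). Whether the change from day 9 to day 20 differed between neo-epithelium and anus was tested as an interaction, and no member passed, where 2.75% of 14468 genes did. The interaction of Tgm3 was 2.23 ± 0.58 (limma, BH-adjusted p 0.0662). It passed with the mouse as a block (adjusted p 0.0447), with TMM scaling (0.0435) and without mouse 18 (0.0385).

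Against the rectum of the same days, 6 of the 7 testable members were higher in neo-epithelium and Tgm3 was lower, where 42% of 14492 genes passed. Krtdap had the largest of these log2 differences, 6.47 ± 0.43, followed by Tgm1 with 4.4 ± 0.39 and Krt10 with 3.59 ± 0.42. Tgm3 was -2.0 ± 0.41 (limma, BH-adjusted p 0.000794). At day 14 alone and at day 20 alone, 4 of 5 testable members were called, where 2045 and 736 genes of any kind passed. The difference of Tgm3 was not called at either day (limma, BH-adjusted p 0.0567 and 0.151). Flg2 was too low for the test. Krt1, Flg and Ivl stayed under 1 TPM in rectum on these days, with at most 0.382, 0.0405 and 0.827 TPM. They entered the test only through neo-epithelium, so the filter favoured the higher direction for them. The keratins that were far below the anus thus stood above the rectum in this test. Krt10 did not exceed 2.15 TPM in rectum on these days and was at 4.13 TPM or more in neo-epithelium. For Krt1 the sections overlapped, with at most 0.382 TPM in rectum and 0.299 TPM in the neo-epithelium of mouse 18.

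In the anus itself, none of the 7 anal genes passed the test against day 0 at any day, while Tgm3 was lower from day 6 to day 14. No member was called at day 3 (0.044% of 13639 genes). Krt1 was 979.7, 2765 and 1321 TPM and Krt10 was 996, 2611 and 975 TPM at day 6, all 6 values within or above the day 0 range. Over all 19 anal samples Krtdap stayed between 7219 and 21364 TPM, Flg between 197 and 905 TPM, Ivl between 31.6 and 118 TPM and Tgm1 between 53.9 and 123 TPM. Flg2 was at 22, 40.9 and 17.9 TPM at day 6, with mice 8 and 10 below its day 0 range, with a log2 difference of -1.03 ± 0.30 that missed the threshold (limma, BH-adjusted p 0.0505). Tgm3 was at 18.8, 45.5 and 19.4 TPM at day 6, 16.6, 33.6 and 22.9 TPM at day 9 and 17.8, 19.5 and 21.3 TPM at day 14. All 9 of these samples were below the lowest day 0 sample, 72.6 TPM.

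The log2 differences of Tgm3 from day 0 were -2.0 ± 0.43, -2.12 ± 0.39 and -2.37 ± 0.35 (limma, BH-adjusted p 0.0170, 0.0167 and 0.0128), the only calls among the 8 genes, where 15%, 5.09% and 4.27% of genes passed. At day 20 it was 70.4, 25.2 and 40.3 TPM and was not called (-1.32 ± 0.44, adjusted p 0.167), where 1.46% passed. The day 6 call ended without mouse 8 or 10, and 2 members were called without mouse 4 or 9. The day 9 call ended without mouse 2, 11 or 13 and without the filter (adjusted p 0.0628). The colonocyte list was also low from day 6 to day 14. It summed to 345 to 1443 TPM at day 0 and 1194 to 2834 TPM at day 3. It then summed to 20.6 to 22.5 TPM at day 6, 5.34 to 20.6 TPM at day 9, 6.78 to 121 TPM at day 14 and 34.1 to 509 TPM at day 20. At day 3 the mean of Tgm3 was 116.0 TPM, against 116.5 TPM at day 0. Genes of the list differed at day 3. Car1 was at 198 to 831 TPM at day 0 and 800 to 2164 TPM at day 3, and Slc26a3 at 52.9 to 311 and 128 to 210 TPM. The part of the list in the lower Tgm3 was not tested.

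The basal keratins gave another reference. Krt14 was at 1208 to 2609 TPM in the anus at day 0 and at 7417 to 10095 TPM at day 6, with no overlap. Set against the mean of Krt5 and Krt14 in the same sample, which moves every gene by -1.60 on the log2 scale, all 8 members were lower at day 6, among them Krt1 with -1.20 (limma, BH-adjusted p 0.0232), Ivl with -1.57 (0.000822) and Tgm1 with -1.70 (0.000335). So were 89.9% of all genes tested. By the same measure 5 members were lower at day 9, where 64% of all genes were, and 4 at day 20, where 33.9% were. Tgm3 alone was lower at day 14 (6.31% of all genes) and no member at day 3 (0.528%). The counts at days 6, 9 and 20 are no result about the members.

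In the rectum the epidermal members were near 0 at most days, and the transglutaminases moved in opposite directions. Tgm1 was at 0.744, 0.443, 1.13 and 0.107 TPM at day 0, at 0.217 to 1.49 TPM at days 3 and 6, and at 7.84, 10.7 and 7.31 TPM at day 9. The groups did not overlap, with a log2 difference of 2.61 ± 0.24 (limma, BH-adjusted p 4.36e-05). At day 0 only the sample with 1.13 TPM reached 1 TPM. Tgm1 thus entered this test only through day 9, which favoured the higher direction. At day 14 it was 0.286, 10.4 and 9.46 TPM and at day 20 it was 5.35, 4.42 and 0.199 TPM, neither of which was called. Without mouse 14, the one with 0.286 TPM, the day 14 difference was 2.81 and was called (adjusted p 0.000192), against 1.78 with it. The basal keratin Krt5 was low in the same samples: it was 0.101 TPM at day 14 and 0.0290 TPM at day 20 in the samples with 0.286 and 0.199 TPM of Tgm1, and 39.1 to 151 TPM in the other 4. At day 9 Krt5 was at 131, 15.3 and 17.4 TPM, against 0.613 to 9.44 TPM at day 0.

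Krtdap in rectum was lower at day 9 (4.83, 4.92 and 0 TPM, log2 difference -2.67 ± 0.87, limma, BH-adjusted p 0.0285) and at day 14 (0.303, 3.09 and 0.724 TPM, -3.31 ± 0.78, adjusted p 0.0304) than at day 0. Both calls ended without the filter on low values (adjusted p 0.0714 and 0.0663), and the day 9 call also without mouse 3 (0.05) or mouse 13 (log2 difference -1.82, adjusted p 0.111). Too few day 9 or day 14 samples reached 1 TPM to meet the filter. Krtdap thus entered both tests through day 0, which favoured the lower direction. The share of all genes called was 53.5% at day 9, where 3 of 4 testable members passed, and 15.8% at day 14, where 2 did. At day 14 the count was 0 without mouse 2, 3 or 16 and 1 without mouse 1, 4 or 15. Krt10 was not called at any day, though its day 9 difference (-1.34 ± 0.55, adjusted p 0.0683) passed with a pseudocount of 0.1 (0.0489), with TMM scaling (0.0473) and without mouse 1 or 4 (0.0282 and 0.0325). Krt1 was tested only at days 3 and 6 and not called.

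Tgm3 was the member with the highest level in the colon. In rectum it was at 609.8, 556, 636 and 529 TPM at day 0, 487, 547 and 559.6 TPM at day 3, 337, 447 and 279.7 TPM at day 6 and 40.0, 42.2 and 52.7 TPM at day 9. The day 9 samples were below all others, with a log2 difference of -3.67 ± 0.12 (limma, BH-adjusted p 2.91e-07). At day 6 it was -0.74 ± 0.15 (adjusted p 0.00567), where 48.7% of genes passed. Tgm3 was then 389, 154 and 122 TPM at day 14 (-1.58 ± 0.35, adjusted p 0.0268) and 275, 198 and 525 TPM at day 20, which was not called (adjusted p 0.0801). The day 14 call ended without mouse 1, 2, 3, 4, 15 or 16 (adjusted p 0.056 to 0.0909) and without the filter (0.0583). At days 3 and 20, where 6.62% and 7.68% of genes passed, no member was called. Without mouse 10, Krtdap was also called at day 6 (adjusted p 0.0184), and without mouse 19 Tgm1 and Tgm3 were called at day 20 (adjusted p 0.00396 and 0.0018).

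In mid-colon Tgm3 was also lowest at day 9. It was at 561, 500.1 and 434 TPM at day 6, 125, 105 and 163 TPM at day 9, 524, 223 and 171 TPM at day 14 and 316, 320.3 and 605 TPM at day 20. Only the day 9 difference passed (-2.57 ± 0.22, limma, BH-adjusted p 2.25e-05), where 43.4% of genes did. At days 3, 6, 14 and 20, with 0.375%, 14.9%, 4.36% and 1.56% of genes called, no member was. The day 6 and day 14 differences of Tgm3 were close to the threshold (adjusted p 0.0530 and 0.0506): it passed at each of these days without mouse 4, at day 14 also without mouse 14 and with TMM scaling, and at day 20 without mouse 4 or 19.

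The summed colonocyte list was lower at day 9 too, with no overlap. In rectum it was 6454 to 8239 TPM at day 0 and 1367 to 1668 TPM at day 9, and in mid-colon 7326 to 9835 and 1246 to 2622 TPM. At day 6 it was 8004 to 9352 TPM in rectum, where genes of the list differed. Car1 there was at 3352 to 4883 TPM at day 0 and 5205 to 6694 TPM at day 6, and Slc26a3 at 1011 to 1291 and 561 to 882 TPM. The part of the colonocyte list in the lower Tgm3 was not tested.

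The fall of Tgm3 at day 9 was deeper in rectum than in mid-colon, with an interaction of -1.10 ± 0.27 (limma, BH-adjusted p 0.0232), where 6.55% of 13520 genes passed. It missed the threshold without mouse 1, 2, 11 or 13 (adjusted p 0.0577, 0.0695, 0.0645 and 0.0803). The rise of Tgm1 at day 9 was larger in rectum on the log2(TPM + 1) scale by 1.67 ± 0.31 (limma, BH-adjusted p 0.00406). Tgm1 met the filter of this test only through rectum at day 9, which favoured that direction. In mid-colon Tgm1 was at 0.0154 to 0.0366 TPM at day 0 and at 0.813, 1.49 and 0.666 TPM at day 9. As a ratio of means, 0.0259 and 0.989 TPM in mid-colon against 0.605 and 8.61 TPM in rectum, the change was the larger one in mid-colon. With a pseudocount of 0.1, which weighs such low values more, the interaction of Tgm1 was 0.83 and not called (adjusted p 0.604).

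**Figure D3:**
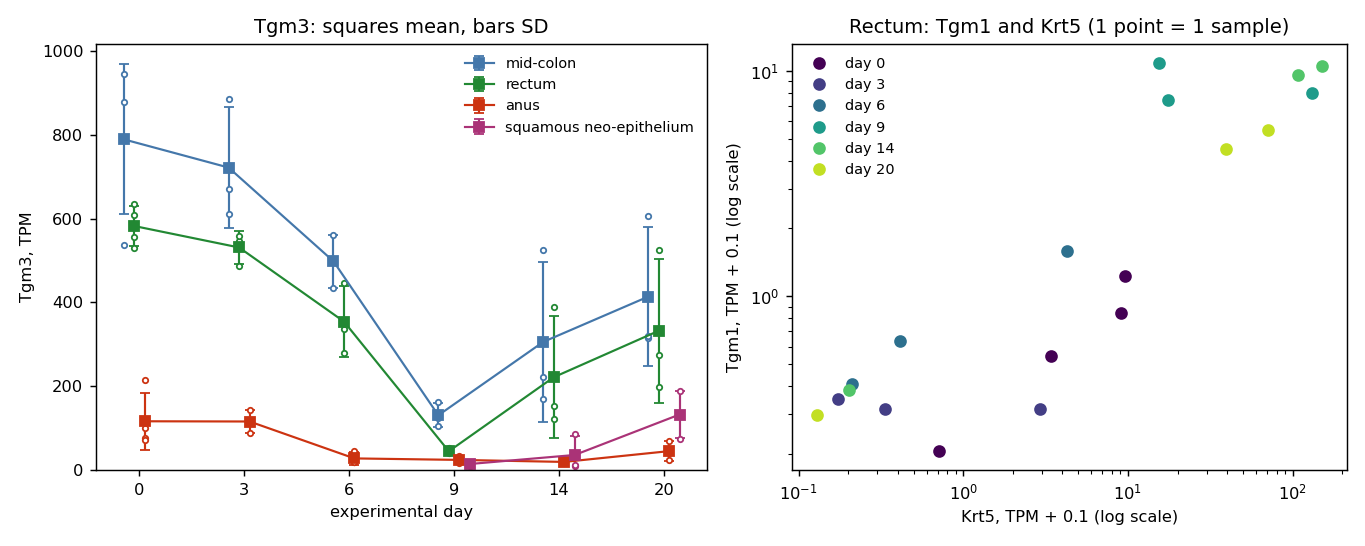
Left, Tgm3 in TPM against experimental day by section, with open points for samples, squares for means and bars for the SD; right, Tgm1 against Krt5 in the 19 rectal samples (TPM + 0.1, log scales), coloured by day. Tgm3 in rectum is lowest at day 9 with 40.0 to 52.7 TPM, and the 7 rectal samples with 4.42 TPM or more of Tgm1 have 15.3 TPM or more of Krt5.

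The other genes of the programme followed the larger group of members. Of 67 genes in 7 lists, 62 were lower in neo-epithelium than in anus, 1 was higher and 4 were not called. Of all 14861 genes tested, 20.4% were lower and 38.1% higher. Genes such as Klk5, listed at 0 in all 9 neo-epithelial samples, entered this test only through the anus, which favours the lower direction. The median log2 difference by list ran from -0.04 to -5.72, against 0.17 over all genes tested. Of the envelope proteins and linkers, 26 of 27 were lower (median -5.72): Cnfn (cornifelin) was at 447 ± 348 TPM in neo-epithelium against 1884 ± 501 TPM in anus (mean ± SD of 9 samples, as for the genes that follow), and Cst6, the cysteine protease inhibitor cystatin E/M, at 1.21 ± 0.80 and 391 ± 161 TPM. Crct1 was at 60.5 ± 66.0 and 867 ± 231 TPM. Lce1f, a late cornified envelope gene, was at 0.774 ± 1.30 and 239 ± 109 TPM. The Lce genes are near-identical copies, so the level of each is uncertain. The exception in that list was Scel (sciellin), with 95.3 ± 31.6 against 123 ± 30.2 TPM (log2 difference -0.39 ± 0.17, limma, BH-adjusted p 0.0627).

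All 4 filaggrin relatives were lower, among them repetin (Rptn, 28.3 ± 32.9 against 270 ± 110 TPM), trichohyalin (Tchh, 1.44 ± 0.69 against 29.5 ± 24.1 TPM) and hornerin (Hrnr, 0.468 ± 0.779 against 23.0 ± 14.3 TPM). Of the proteases and their inhibitors 7 of 8 were lower. The desquamation protease Klk7 was at 0.400 ± 0.476 against 117 ± 72.9 TPM, its relative Klk5 was listed at 0 in all 9 neo-epithelial samples against 27.4 ± 21.3 TPM, and the filaggrin-processing protease Asprv1 was at 64.5 ± 69.8 against 617 ± 201 TPM. The kallikrein inhibitor Spink5 kept more of its level, 110 ± 31.0 against 210 ± 14.8 TPM. St14 (matriptase) was the 1 gene that was higher, at 53.4 ± 19.3 against 25.2 ± 4.89 TPM, with a log2 difference of 0.99 ± 0.12 (limma, BH-adjusted p 2.33e-06); colonic epithelium also expresses it, with 84.2 ± 23.9 TPM in rectum.

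All 11 barrier lipid genes and all 3 corneodesmosome genes were lower. Elovl4, which makes the very long acyl chains of skin ceramides, was at 3.14 ± 2.21 against 311 ± 130 TPM, and the lipoxygenase Alox12b at 4.97 ± 4.80 against 36.4 ± 11.2 TPM. Corneodesmosin (Cdsn) was at 4.78 ± 5.57 against 96.4 ± 26.1 TPM and desmoglein Dsg1a at 0.685 ± 0.660 against 29.3 ± 8.67 TPM. All 9 further suprabasal genes were lower as well, including Calm4 (67.4 ± 52.9 against 4037 ± 1633 TPM), Dmkn (328 ± 162 against 3516 ± 1025 TPM) and the keratin Krt77 (0.0347 ± 0.0319 against 72.6 ± 32.1 TPM).

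The regulators of terminal differentiation were the list that moved least. Of 5 transcription factors, Grhl1 (16.9 ± 4.88 against 37.2 ± 4.95 TPM) and Ovol1 (12.7 ± 2.76 against 27.0 ± 7.15 TPM) were lower. Grhl3 (33.7 ± 12.3 against 31.2 ± 6.45 TPM), Zfp750 (46.5 ± 24.0 against 41.0 ± 4.45 TPM) and Klf4 (61.4 ± 31.4 against 56.5 ± 7.21 TPM) were not called. The median log2 difference of the list was -0.04. Against rectum, 4 of the 5 were higher in neo-epithelium and Klf4, which is also a gene of colonocytes and goblet cells, was lower (log2 difference -1.31 ± 0.22, limma, BH-adjusted p 0.000117).

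The 67 genes were counted in the other comparisons too, and the share of all genes called is given with each count. Between anus and rectum at day 0, 64 of 66 tested were higher in anus (25.9% of all genes), and Klf4 and St14 were lower (log2 differences -1.33 ± 0.14 and -1.38 ± 0.17, limma, BH-adjusted p 3.06e-05 and 8.36e-05). Between neo-epithelium and rectum, 43 of 50 tested were higher and 2 lower (20.7% and 21.3%). A gene under 1 TPM in all rectal samples entered the tests against rectum only through the other section, which favours the higher direction there. Within neo-epithelium, 20 of 43 tested were lower and 2 higher at day 14 than at day 9 (16.8% of all genes in either direction), and 11 of 50 were lower and 4 higher at day 20 (26.2%). Of all genes, 1283 of 13129 were lower and 924 higher at day 14, and 2124 of 13186 were lower and 1335 higher at day 20. A gene under 1 TPM in all samples of the later day entered these tests only through day 9, which favours the lower direction. The 2 list genes higher at day 14 were St14 and Prss8, the serine protease prostasin. At day 20 they were joined by Klf4 and Casp14, a caspase of cornifying cells (log2 difference 2.30, limma, BH-adjusted p 0.0157). Casp14 was not confined to squamous sections. Its means over days 9 to 20 were 9.12 (neo-epithelium), 14.8 (rectum), 22.4 (mid-colon) and 88.3 TPM (anus). Those of Prss8 were 21.7, 25.0, 25.5 and 32.8 TPM in the same order. The colonocyte list of neo-epithelium also rose from day 9 to day 20, and its part in these rises was not tested. In the anus, 7 of 67 were lower and 1 higher at day 6, where 15% of all genes were called, so the list did not exceed the background there.

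**Figure D4:**
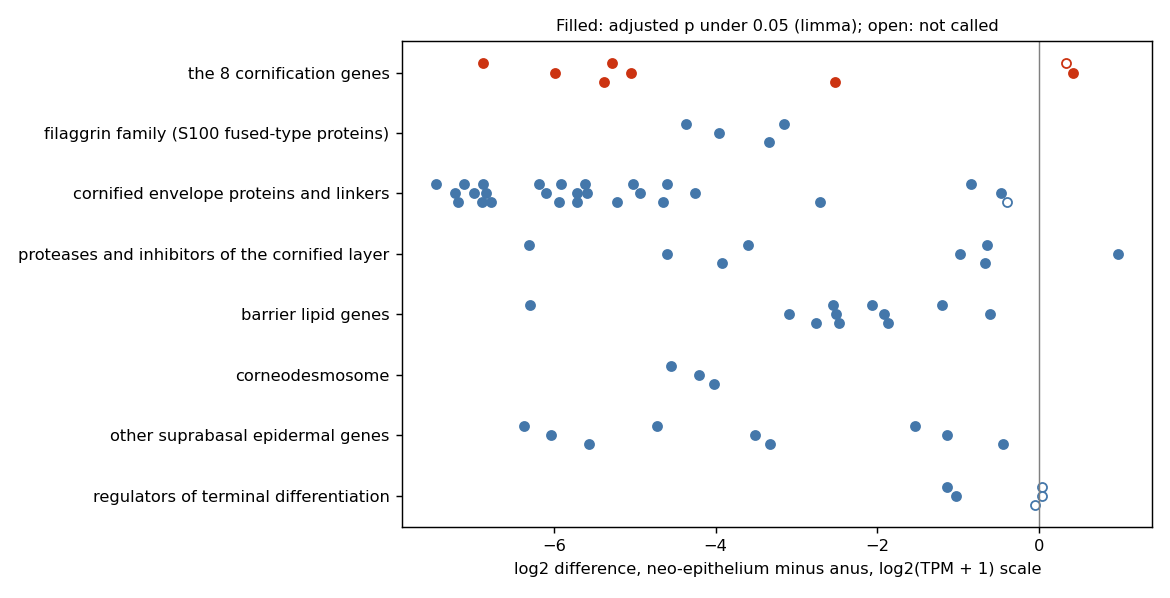
Log2 difference between neo-epithelium and anus over days 9 to 20, on the log2(TPM + 1) scale, for the 8 genes and the 7 lists, 1 point per gene; filled points passed limma at a BH-adjusted p under 0.05. Points lie mostly to the left of 0, with a median of -5.72 for envelope proteins and linkers and -0.04 for the regulators.

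Krt1 and Krt10 together were 14.4% to 85.2% of Krt4 and Krt13, keratins of squamous linings, in the 19 anal samples (median 34.8%). In the 9 neo-epithelial samples they were 0.116% to 2.00% (median 0.325%), with no overlap. Krt13, with 7373 ± 2101 against 7722 ± 2282 TPM, did not pass the test. Krt4 was lower (1525 ± 1236 against 3184 ± 665 TPM; log2 difference -1.48 ± 0.31, limma, BH-adjusted p 0.000653).

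The genes whose levels ran closest to Krt10 and to Tgm3 were ranked by Pearson correlation of log2(TPM + 1). Over the 28 anal and neo-epithelial samples, which share mice and are split by section, Krt10 was most like Calm4 (r = 0.988), Cdsn (0.987), Gm94 (0.987), Krtdap (0.985) and Bpifc (0.984). Tgm3 in the same samples was most like Tspan7 (0.935), Scnn1g (0.933), Trpv3 (0.925), Micalcl (0.924) and Paqr5 (0.921). Over the 38 rectal and mid-colonic samples Tgm3 was most like Slc37a2 (0.962), Slc26a2 (0.954), Slc26a3 (0.954), Slc25a34 (0.946) and Abcb1a (0.944). Slc26a2 and Slc26a3 encode anion transporters of surface colonocytes. These correlations describe the samples and were not tested.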

How the data were processed

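RNA was sequenced as stranded mRNA libraries with single-end reads of 75 bp, per the labels' protocols. The submitters' processing notes name CASAVA, kallisto and mm10, with no versions. The authors deposited 1 table of TPM values per Ensembl transcript with a column for each of the 66 samples. Of its 126860 rows, 37344 had no values and 1318 repeated a transcript under a further Entrez identifier. These were dropped, after which columns summed to 999999.8 to 1000000.2, and TPM was summed per gene. A sum over transcripts carries the errors of their estimation from short reads. With no counts, depth is unknown and no interval or detection floor is given. A value of 0 is written as listed at 0.

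Log2(TPM + 1) values entered limma 3.58.1 (trended prior) in R 4.3.3, with only the samples of the compared groups in a fit. A gene was tested where no fewer samples than the smallest section and day group holds reached 1 TPM, and calls had a Benjamini-Hochberg (BH) adjusted p under 0.05 over all genes tested. Comparisons over days 9 to 20 had day as a covariate. Scripts were tested on simulated data. The other settings were a pseudocount of 0.1, no filter, TMM factors, single days, each mouse left out, values relative to the mean of Krt5 and Krt14, and the mouse as a replicate block. Sections of 1 mouse are paired by the mouse numbers in the labels; over genes, their deviations from the group means correlated with a mean Pearson r of 0.053 (anus and rectum, day 0) to 0.273 (neo-epithelium and rectum). Motifs were searched in RefSeq windows with Python 3.11.15 (numpy 2.4.6, pandas 2.3.3), and plots used matplotlib 3.10.9. Genes of a list are named if they are among the 2 highest in anus or the 2 with the largest difference between neo-epithelium and anus; Scel, St14, Grhl3, Zfp750, Prss8 and Casp14 were named after their values were seen. Of the genes this rule selects, 1 is not reported here. The 8 genes and all lists were chosen with earlier results of these data known.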

Additional observations from a re-analysis of the deposited data

Results flagged for a closer look

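At day 0, 24 groups of 4 samples were screened for a sample far from the others, and 6 had one. Chance flags about 1 in 20 separate groups, but the rectal flags come from 1 sample and are not separate. In the rectum the sample of mouse 1 stood far above the other 3 in Krt1 (14.3 TPM), Krt10 (18.0 TPM), Krtdap (82.7 TPM) and Flg2 (0.193 TPM). In mid-colon mouse 4 stood above the others in Krt1 (0.545 TPM) and Flg2 (0.00562 TPM), both at low levels; the other 3 samples of Flg2 were at 0, so any value above 0 is flagged there.

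The change from day 0 to day 9 passed a test of the difference between rectum and mid-colon in both transglutaminases, on the log2(TPM + 1) scale. The difference of the log2 changes was 1.67 for Tgm1 and -1.10 for Tgm3 (limma, BH-adjusted p 0.00406 and 0.0232). Tgm1 met the filter of this test only through rectum at day 9. The Tgm1 difference was not called with a pseudocount of 0.1 (0.83, adjusted p 0.604), nor the Tgm3 one without mouse 1, 2, 11 or 13.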

How the results depend on the processing

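Counts are of the 8 members called. All 8 calls between anus and rectum and all 7 between neo-epithelium and rectum held when each mouse was left out. The count was 0 between rectum and mid-colon with a pseudocount of 0.1 and without the filter, 0 for anus at day 9 and 0 for rectum at day 14 without the filter, 2 for mid-colon at day 9 and 2 for neo-epithelium at day 14 without the filter, and 1 for mid-colon at day 14 with TMM factors. Relative to the basal keratins, where 89.9%, 64% and 33.9% of all genes were lower, it was 8, 5 and 4 for anus at days 6, 9 and 20, and 1 for neo-epithelium at day 20, and the differences of Krt1 (-1.20) and Ivl (-1.57) at day 6, of Tgm1 at day 9 (-1.08) and of Tgm1 between neo-epithelium and anus (-0.24) changed sign. Between neo-epithelium and rectum it was 4 at day 14 alone and 4 at day 20 alone. The interaction of rectum and mid-colon kept 1 with a pseudocount of 0.1. With the mouse as a replicate block, the interaction of neo-epithelium and anus gained 1 (Tgm3), as with TMM factors (1), and the pairing changed no other call among the members.

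Leaving out each mouse gave 0 to 2 between rectum and mid-colon. For anus the counts were 0 at days 3 and 20, 0 to 2 at day 6, 0 to 1 at day 9 and 1 at day 14. For rectum they were 0 at day 3, 1 to 2 at day 6, 2 to 4 at day 9, 0 to 3 at day 14 and 0 to 2 at day 20, and for mid-colon 0 at day 3, 0 to 1 at day 6, 1 at day 9, 0 to 1 at day 14 and 0 to 1 at day 20. Between neo-epithelium and anus they were 6 to 7, within neo-epithelium 0 to 4 at day 14 and 1 to 3 at day 20, and for the interactions 0 to 1 (anus) and 1 to 2 (mid-colon). Over single members, 428 alternatives stayed called, 864 stayed not called (79 of these with the other sign), 55 lost the call, 35 gained it, and 4 changed sign with a call on either side. TMM factors moved the log2 differences of a comparison by -0.23 to 0.21. With 3 or 4 mice a group and no counts, low members are the least certain.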

Other observations

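Tgm1 is annotated with several transcripts in the deposited table, and their balance differed between the squamous tissues; this was noticed after the values were seen. ENSMUST00000168729 held a median of 82.6% of the Tgm1 abundance in neo-epithelium (62.4% to 99.9%) and 58.3% in the anus of the same mice (21.9% to 79.2%). It was higher in 9 of 9 mice, by 28.4 ± 17.0 percentage points (SD), with an exact two-sided sign-flip permutation p of 0.0039 over 512 patterns, the smallest this design can give. ENSMUST00000178034 was lower in neo-epithelium in 9 of 9 mice, by a difference of -24.8 ± 14.3 percentage points. Both shares are estimates from single-end reads and cover the same gene, so they are not independent.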
